A study of Rattus norvegicus with 64 samples.

Results

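Gene expression of bladder wall reconstructed with a cell-seeded graft was compared with that of bladder wall reconstructed with an unseeded graft at 90 days of follow-up. The graft was bladder acellular matrix (BAM), which is the bladder wall left after its cells are removed. It was implanted either alone or after seeding with adipose tissue-derived stromal cells (ASCs, written ADSCs in the sample labels) grown to the third passage. All rats were syngeneic male Wistar rats that underwent hemicystectomy and received a graft of about the same size, and their age is not given in the labels. The fat came from male rats of the same strain. The labels put 8 arrays in the group BAM_ADSCs_90d and 8 in the group BAM_90d, 1 rat per array, and these 16 of the 64 arrays of the series were compared here. No native bladder, sham-operated bladder or array of the seeded cells was compared here, so a value says how the walls with and without seeded cells differ, not how either differs from normal bladder. The seeded cells and the cells of the host cannot be told apart by their transcripts, since both are rat cells of the same strain.

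At 90 days, 114 named genes were higher and 113 lower with ASCs among 5053 that could be read without saturation. Among unsaturated probes, named or not, 171 were higher and 417 lower, and 71.3% of these higher but 28.5% of these lower calls had a name. The rises included the chloride channel Ano1, Dync2i2 of the ciliary dynein and, with a call that was lost without single arrays, Upk1b of the urothelial plaque, and none was above 2.35-fold. The falls were larger, though the filters could leave out large rises from low levels with BAM only. The falls included Pkib, an inhibitor of protein kinase A, Slc32a1, a transporter of synaptic vesicles, and Igfbp7, a binding protein of insulin-like growth factors. The arrays of 180 days entered the choice of these genes only through the spread that the fit shares over all arrays. There, 109 of the 113 lower genes were above 0 with ASCs and 36 were called higher, against 1.37% called higher among all 5053 genes. Detection was required at 90 days only, and 100 of the 113 were also detected on all arrays of 180 days. The median difference of all 5053 genes was -0.02 on that day. At both days each graft had a slide of its own. In a bulk sample, fewer cells of a type and less RNA per cell cannot be told apart.

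A bladder wall is lined by the urothelium, whose umbrella cells are covered by plaques of uroplakins, and is moved by the detrusor, a layer of smooth muscle. Between them lies a stroma of fibroblasts, vessels, nerves and resident leukocytes. An acellular graft is populated from the margins of the host's bladder, the urothelium usually closing over the graft before smooth muscle enters it. Macrophages, complement and newly laid matrix take part in that healing, and stromal cells of adipose tissue are known mainly for the factors that they secrete.

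The level of a probe was its processed signal on the log2 scale relative to the 75th percentile of all gene spots on the same array, so that 0 stands for that percentile, and every level below is on this scale. Each group was hybridized on a slide of its own, so that slide and graft cannot be told apart in any difference given here. The slide of BAM only was the brighter. Its median local background was 321 to 366 intensity units, against 99 to 120 with ASCs, and their 75th percentile was 959 to 3148, against 768 to 1337. Spots at the limit of the scanner numbered 432 to 1293 on an array of BAM only and 334 to 563 on an array with ASCs. Replicate 8 of BAM only was dim, with 35.5% of its gene spots well above background, while the other 15 arrays had 53.0 to 64.6%. Replicate 5 of BAM only correlated least with the arrays of its own group (r = 0.846 across probes), followed by replicate 8 (0.905), and among the arrays with ASCs replicate 3 correlated least (0.927). The 10 labelling controls of Agilent, transcripts added to the RNA in a fixed mixture, do not come from the tissue. Of these, 7 were detected and unsaturated on all 16 arrays, and their log2 differences between the groups ran from -0.32 to 0.46 with a median of -0.09, none of them over 1.5-fold.

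Of 30367 gene probes, 8749 were well above background on all 16 arrays and were tested. A probe was called a differentially expressed gene (DEG) at a Benjamini-Hochberg adjusted p below 0.01 in limma and a fold change over 1.5. At 90 days 1164 probes, or 13.3% of those tested, were DEGs, of which 728 (8.32%) were higher and 436 (4.98%) lower in the walls with ASCs. Most of the higher calls lay where the scanner was at its limit. A total of 1043 probes were saturated on at least 1 of the 16 arrays, 575 of them on arrays of BAM only, 458 on arrays of both groups and 10 on arrays with ASCs only. These held 557 of the 728 higher calls and 19 of the 436 lower calls. A saturated spot gives only a lower bound of its level, and these spots were mostly on the arrays of BAM only, so no direction was read from the 557. The 1750 probes with the highest mean signal had a median log2 difference of 0.26, against -0.01 for its 739 unsaturated probes.

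**Figure D1:**
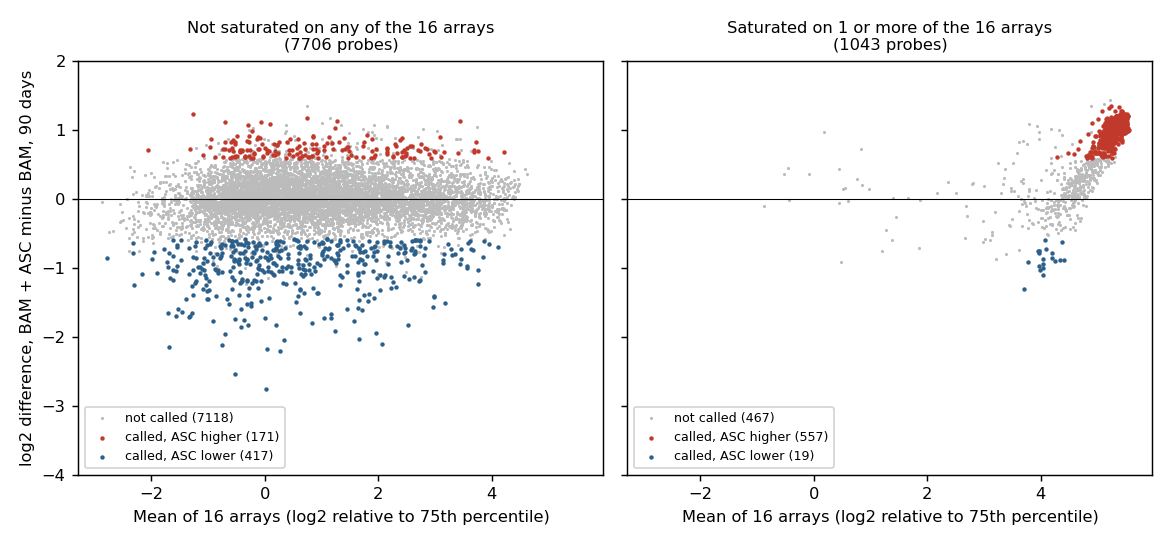
Log2 difference at 90 days, the mean with ASCs minus the mean of BAM only (vertical axis), against the mean level over the 16 arrays (horizontal axis, log2 relative to the 75th percentile), 1 point per probe, for 7706 unsaturated probes (left) and 1043 probes saturated on 1 or more arrays (right). The 557 saturated probes called higher form a rising band at the bright end. The 171 higher and 417 lower unsaturated calls reach over the whole range of signal. The lower calls are densest at the dim end, with 140 among the 1746 unsaturated probes of lowest mean signal, against 39 higher calls there.

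Among the 7706 probes unsaturated on all 16 arrays, 171 (2.22%) were higher and 417 (5.41%) lower with ASCs, and the median difference was -0.01. This split depended on the scaling and on the detection filter. The higher calls were 29.1% of all unsaturated calls here. They were 36.7% after quantile normalization, 40.4% with the 75th percentile of the tested probes and 17.9% after cyclic loess. With detection on all arrays of at least 1 group they were 49.9% (564 higher, 566 lower), and 19.4% without the filter. Names were unequally spread. A RefSeq name was found for 71.1% of the unsaturated probes and 71.3% of the higher calls, but for 28.5% of the lower calls. With the brightest unsaturated probe taken for each gene, 5053 named genes were left, and of these 114 (2.26%) were higher and 113 (2.24%) lower. The falls were larger than the rises: 35 of the lower and 7 of the higher genes differed over 2-fold, and the largest differences were 4.13-fold and 2.35-fold. The filters bear on this contrast in size. A gene had to be detected on all 16 arrays, and the floor of BAM only was the higher. Large rises from a low level with BAM only could therefore be left out, as were saturated probes. How far this set the contrast was not tested. Lower calls were densest at the dim end. Of the 1746 unsaturated probes with the lowest mean signal, 140 were lower and 39 higher. With rising signal, 83 of 1743, 76 of 1739, 93 of 1739 and 25 of 739 were lower. In the same order, 38, 39, 42 and 13 were higher. Whether the detection filter and the higher floor of BAM only favored falls among dim probes was not tested. Levels of all 8 arrays with ASCs lay above all 8 of BAM only for 123 genes (2.43%) and below them for 103 (2.04%). Of the 397 genes with 2 or more unsaturated probes, 27 had a called probe and 1 was called on all its probes, and none was called in opposite directions. The rest of the 27 had a further probe that was not called. A single probe therefore carries nearly every call named below, whether another readable probe was lacking or was not called.

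Of the 12 genes with the largest rise, 5 were called without each of the 16 arrays in turn, and the calls of the others were lost without 1 or more arrays. Upk1b, a tetraspanin of the uroplakin plaques of umbrella cells, had levels of 1.20 to 3.28 (median 1.68) with ASCs and -1.20 to 1.81 (median 0.87) with BAM only, a difference of 1.13 ± 0.34 (log2, SE, n = 8 and 8, adjusted p = 0.0055). The ranges overlapped, and the low end of BAM only was replicate 5. Without that array the difference was 0.86 (adjusted p = 0.030), which is no longer a call, and Upk1b stayed a call in 11 of the 16 fits that left out 1 array. Crabp2, which carries retinoic acid to its nuclear receptor, was at 3.61 to 4.61 with ASCs and 0.17 to 4.22 with BAM only, a difference of 1.12 ± 0.35 (adjusted p = 0.0086) that was 0.74 (adjusted p = 0.056) without the same array and stayed a call in 6 of these fits. Syt8, a synaptotagmin, differed by 1.17, and by 0.75 (adjusted p = 0.057) without it, and was called in 7 of the 16 fits. Rnf208, a RING finger protein, and Chka, a choline kinase that begins the synthesis of phosphatidylcholine, lost their calls without that array alone, their differences of 1.11 and 0.91 becoming 0.74 and 0.64 (adjusted p = 0.019 and 0.013). Tc2n, a protein with a pair of C2 domains, differed by 0.92 (adjusted p = 0.0071) and by 0.81 (adjusted p = 0.021) without it, and stayed a call in 9 of the 16 fits that left out 1 array. H1f4, a linker histone, differed by 0.90 (adjusted p = 0.003) and by 0.77 (adjusted p = 0.013) without replicate 8 of BAM only, and its call was also lost without replicate 2 with ASCs.

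The 5 rises called without each array were also called under all other normalizations, filters and fits that held their probe. At the 2-fold threshold Ano1 and Pcbd1 would not be calls. Dync2i2, an intermediate chain of the dynein that carries cargo back along cilia, had the smallest error. Its levels were 0.33 to 0.88 (median 0.67) with ASCs and -0.60 to -0.19 (median -0.48) with BAM only, a rise of 1.09 ± 0.09 (adjusted p = 5.5e-15), and the groups did not overlap. Caskin1, a scaffold protein first known from synapses, was at -0.94 to -0.24 with ASCs and -2.63 to -1.37 with BAM only, a rise of 1.23 ± 0.26 (adjusted p = 0.0001), again with no overlap. Its levels with BAM only were low. On replicate 8 it was at -1.44, below the lowest signal well above background of that array (-1.20), and without that array the rise was 1.295 (adjusted p = 8.7e-05). Ano1, the calcium-activated chloride channel of pacemaker cells and of secretory epithelia, was at 1.96 to 2.68 with ASCs and 0.79 to 1.87 with BAM only, a rise of 0.92 ± 0.19 (adjusted p = 5.3e-05), and all arrays with ASCs were above all of BAM only. Cyp2s1, a cytochrome P450 of epithelia, rose by 1.03 ± 0.22 (adjusted p = 0.0001), and Pcbd1, a recycling enzyme of tetrahydrobiopterin that also binds the transcription factor HNF1, by 0.98 ± 0.18 (adjusted p = 7.5e-06), with ranges that overlapped in part.

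The 12 largest falls were all called without each array and under all other normalizations, filters and fits that held their probe. In 10 of them the groups did not overlap. Pkib, an inhibitor of protein kinase A, had levels of -0.99 to -0.41 (median -0.63) with ASCs and 1.10 to 1.62 (median 1.39) with BAM only, so that the arrays of BAM only were all higher, by 2.05 ± 0.12 (log2, adjusted p = 1.3e-21). Slc32a1, which loads synaptic vesicles with GABA and glycine, was at -1.43 to -0.87 with ASCs and 0.15 to 0.76 with BAM only, a fall of 1.75 ± 0.13 (adjusted p = 1.1e-17). Gabrq, a subunit of the GABA receptor, fell by 1.66 ± 0.18 (adjusted p = 1.7e-11) and Pcdh20, a protocadherin, by 1.66 ± 0.15 (adjusted p = 1.2e-13). Etv3, an ETS-family repressor, was at 0.28 to 1.21 with ASCs and 1.81 to 3.00 with BAM only, and fell by 1.62 ± 0.14 (adjusted p = 6.7e-15). Amer1, a membrane protein that binds APC and restrains Wnt signaling, fell by 1.40 ± 0.13 (adjusted p = 1.2e-13), and Dlx3, a homeobox factor of skin and teeth, by 1.45 ± 0.18 (adjusted p = 2.1e-09). Adam7, a disintegrin best known from the epididymis, Ppp1r35, a centriole protein, Pcyox1l, related to an oxidase of prenylated cysteine, and RGD1564712 fell by 1.69, 1.48, 1.46 and 1.33. The groups overlapped for Pcyox1l and RGD1564712. Several of these genes are best known from neurons or from other organs, and the level of a probe on its own does not show which cells of the wall, or which transcript, gave the signal.

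**Figure D2:**
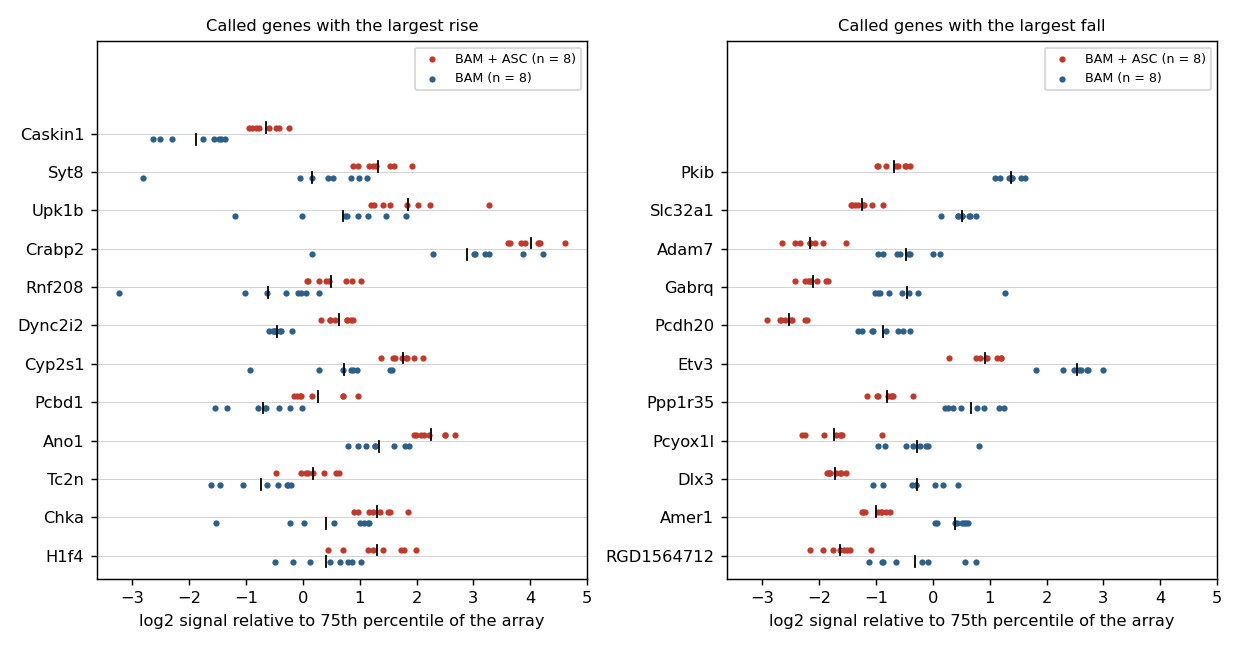
Levels on each of the 16 arrays of 90 days (log2 relative to the 75th percentile of the array, horizontal axis) for the 12 named genes with the largest rise (left) and 11 of the 12 with the largest fall (right), 8 points per group with black bars at the means. For the falls shown the groups are apart except for Pcyox1l and RGD1564712, while among the rises the groups of 3 genes are apart and single low arrays of BAM only, such as replicate 5 for Rnf208 at -3.23, widen the range.

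The windows of RefSeq around the annotated starts of genes called in either direction were compared next, since they moved together by that choice. A window of 300 bases, from 250 before to 50 after the start on build GRCr8, was found for 95 of the 114 higher and 91 of the 113 lower genes. The GC box GGGCGG, read on both strands, stood in 66.3% of the windows of higher genes and 52.7% of those of lower genes, beside 65.4% for the 4180 tested genes with a window and 34.9% for all 27457 windows. The letters TATAAA stood in 10.5%, 8.79%, 6.79% and 14.3%, CCAAT in 36.8%, 41.8%, 39.8% and 37.7%, and the STAT spacing TTCNNNGAA in 8.42%, 8.79%, 6.48% and 8.68% of the same groups in that order. Median GC content was 62.0% for higher, 62.3% for lower and 61.3% for all tested genes. None of these motifs contains another, and all were read on both strands. The windows of a pair of genes that rose and a pair that fell, all 4 described here, are shown because they differ within each direction, with GGGCGG or its reverse complement in capitals. They hold 0 GC boxes for Upk1b and 5 for Ano1 among the genes that rose, and 0 for Pkib and 4 for Igfbp7 among those that fell.
Upk1b, GRCr8 chr11:75459131-75459430, plus strand: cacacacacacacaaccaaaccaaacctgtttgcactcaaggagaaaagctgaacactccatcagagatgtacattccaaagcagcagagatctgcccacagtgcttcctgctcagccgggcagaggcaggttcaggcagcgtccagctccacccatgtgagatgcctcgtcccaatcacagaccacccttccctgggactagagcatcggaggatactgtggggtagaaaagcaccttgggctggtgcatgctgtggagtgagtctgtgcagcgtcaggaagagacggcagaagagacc
Ano1, GRCr8 chr1:209329289-209329588, minus strand: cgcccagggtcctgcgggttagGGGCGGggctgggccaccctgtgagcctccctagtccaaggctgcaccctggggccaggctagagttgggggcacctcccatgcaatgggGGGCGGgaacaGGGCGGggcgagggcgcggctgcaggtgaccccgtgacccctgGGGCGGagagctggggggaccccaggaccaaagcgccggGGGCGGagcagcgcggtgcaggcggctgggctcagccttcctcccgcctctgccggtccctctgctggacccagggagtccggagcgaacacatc
Pkib, GRCr8 chr20:37513082-37513381, plus strand: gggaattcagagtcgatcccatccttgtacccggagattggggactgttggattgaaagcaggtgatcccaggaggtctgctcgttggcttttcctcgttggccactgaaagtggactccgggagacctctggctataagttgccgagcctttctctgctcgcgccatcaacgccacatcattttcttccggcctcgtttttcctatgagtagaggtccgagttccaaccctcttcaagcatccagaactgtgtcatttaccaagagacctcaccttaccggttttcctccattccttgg
Igfbp7, GRCr8 chr14:31091486-31091785, plus strand: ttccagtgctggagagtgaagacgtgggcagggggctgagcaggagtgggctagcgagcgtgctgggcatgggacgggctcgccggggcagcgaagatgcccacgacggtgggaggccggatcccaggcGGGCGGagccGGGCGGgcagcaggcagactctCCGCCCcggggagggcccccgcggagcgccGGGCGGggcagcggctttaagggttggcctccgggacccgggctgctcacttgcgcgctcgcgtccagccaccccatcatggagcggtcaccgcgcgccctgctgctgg

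The labelled tissue was checked against its defining markers. Upk1a, Upk1b, Upk2 and Upk3a of the plaques and Actg2 and Myh11 of the detrusor were well above background on all 16 arrays, whereas Krt20, a keratin of umbrella cells, was not. Upk1a was saturated on 2 of the 8 arrays with ASCs and 4 of BAM only, Upk3a on 7 and 7, Actg2, the actin of visceral smooth muscle, on 8 and 8, and Myh11, its myosin heavy chain, on 7 and 8. No direction was read from these. Upk2, saturated on 1 array of BAM only, was at 4.46 ± 0.81 (SD, n = 8) with ASCs and 3.49 ± 1.41 with BAM only (adjusted p = 0.19). Replicate 5 of BAM only stood apart in makeup. Its mean level over the 4 unsaturated genes of the urothelial plaque list was -1.11, while the other 7 arrays of BAM only were at 1.24 to 2.87 and the arrays with ASCs at 2.28 to 3.87. Its smooth muscle level over 7 genes was 2.79, against -0.65 to 1.06 on the other 7. Replicate 3 with ASCs had the highest plaque level, 3.87, and the lowest macrophage level, -1.53, the other 7 arrays with ASCs being at 0.35 to 1.15.

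Gene lists of cell types and pathways were read through their tested and unsaturated members, beside 2.26% higher, 2.24% lower and a median of 0.01 over all 5053 genes. The 59 lists held 1216 genes, of which 1116 had a named probe on the array, 540 missed the detection filter on 1 or more of the 16 arrays, 140 had only saturated probes and 436 could be read. Of the 436, 8 (1.83%) were higher and 11 (2.52%) lower. These shares are close to the background, and most lists had no called member at all.

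**Figure D3:**
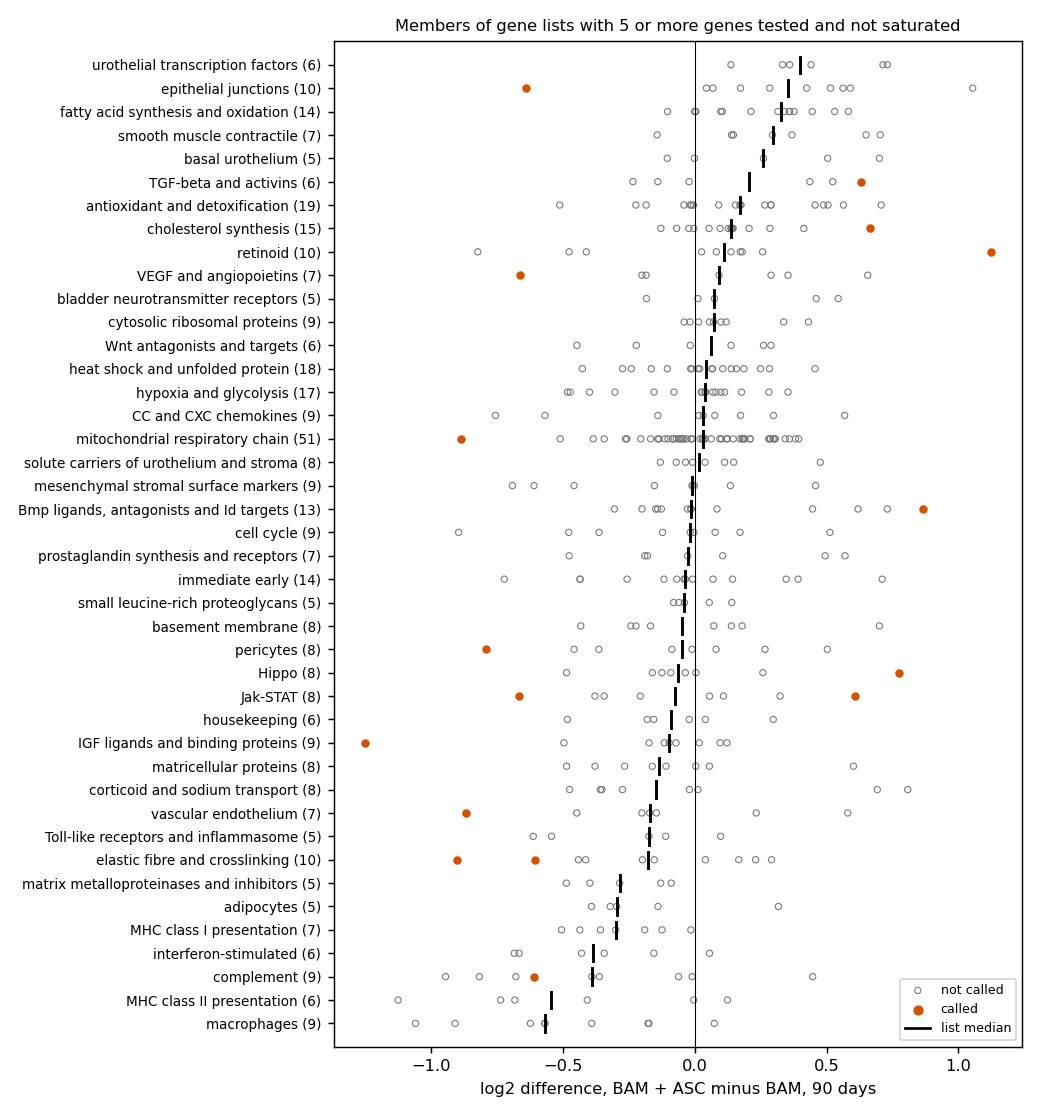
Log2 differences at 90 days of the unsaturated members of each gene list with 5 or more such members (number in brackets), 1 point per gene, filled where the gene was a DEG, with a black bar at the list median. Medians run from -0.57 for macrophages to 0.40 for urothelial transcription factors, and few members of any list are filled.

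Lists of epithelium lay above 0, yet by few calls. On the plaque list 4 of 4 readable genes were above 0 (median 1.03), with Upk1b the only call, and relative to all genes the list median went from 1.02 to 0.56 without replicate 5 of BAM only. For the urothelial transcription factors it went from 0.39 to 0.17 without the same array, and for the basal list from 0.25 to 0.16. Krt7 and Krt8, keratins of the urothelium, differed by 1.05 (adjusted p = 0.10) and 0.72 (adjusted p = 0.21), and without replicate 5 of BAM only Krt7 was at 0.58 (adjusted p = 0.36). Pparg, Gata3 and Elf3, transcription factors of urothelial differentiation, differed by 0.71 (adjusted p = 0.025), 0.33 and 0.73, none of them a call. Of 10 junction genes 9 were above 0 (median 0.35). Cdh1, the cadherin of epithelium, Epcam and Cldn4 were at 0.51, 1.05 and 0.28 with adjusted p = 0.35, 0.086 and 0.67. The median of the junction list relative to all genes was 0.34, and 0.04 without replicate 5. The 1 junction gene that changed, Ocln, the tight-junction protein occludin, went the other way: it was at -0.82 to -0.32 (median -0.62) with ASCs and -0.59 to 0.40 (median 0.11) with BAM only, a fall of 0.64 ± 0.12 (adjusted p = 8.6e-06) that was -0.73 without replicate 5. In the basal layer, Krt5 differed by 0.50 (adjusted p = 0.51) and Tp63, the p63 of basal cells, by -0.10 (adjusted p = 0.50).

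For smooth muscle, 11 of 19 contractile genes on the array were saturated. The 7 readable ones had a median of 0.29 with no call, which was 0.11 relative to all genes without replicate 4 of BAM only and 0.62 without its replicate 5. Mylk, the kinase that starts contraction, was at 0.97 to 2.23 with ASCs and -0.12 to 3.48 with BAM only (difference 0.37, adjusted p = 0.43), and Smtn, smoothelin, differed by 0.29 (adjusted p = 0.52). Cald1, caldesmon, differed by 0.65 (adjusted p = 0.068), and by 0.97 (adjusted p = 0.0012) once replicate 5 of BAM only was left out, which is a call. Among 4 ion channels of smooth muscle Ano1 rose and the others did not pass the test. Markers of striated muscle were read too, since such muscle could be cut with a sample: Acta1 and Ckm differed by -0.62 and 0.07 (adjusted p = 0.18 and 0.91), and Acta1 was highest, at 2.32, on replicate 5 of BAM only. Adjacent to muscle, the pericyte list held 1 call. Cox4i2, a cytochrome oxidase subunit of pericytes, was at -0.20 to 0.26 with ASCs and -0.04 to 1.22 with BAM only, a fall of 0.79 ± 0.13 (adjusted p = 7.3e-07).

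**Figure D4:**
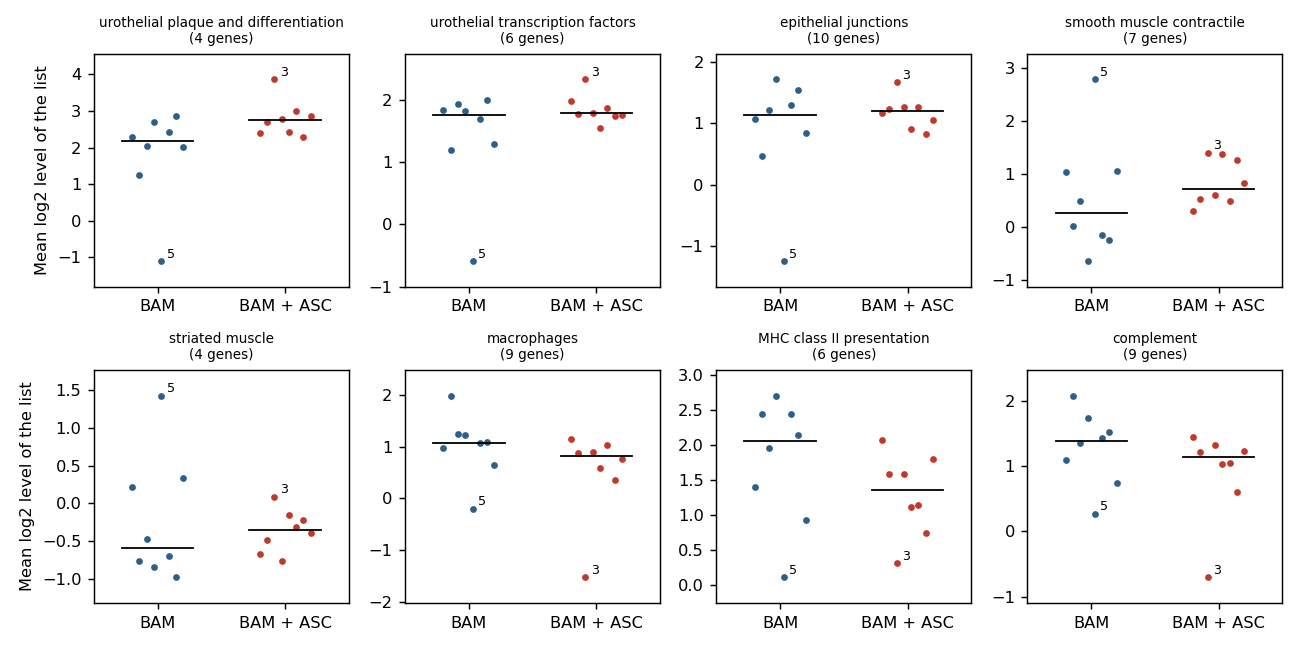
Mean level of the unsaturated members of 8 gene lists on each array of 90 days (vertical axis, log2 relative to the 75th percentile), 8 points per group with black bars at the medians. The numbers mark replicate 5 of BAM only, lowest for the plaque list at -1.11 and highest for smooth muscle at 2.79, and replicate 3 with ASCs, lowest for macrophages at -1.53, and the 2 groups overlap in every panel.

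Macrophage, class II and complement lists lay below 0, whereas 3 other inflammatory lists lay above it with no call. These were mast cells (median 1.04, 2 genes), inflammatory cytokines (0.19, 3 of 4 genes above 0) and CC and CXC chemokines (0.03, 6 of 9 above 0). Further immune lists lay below 0, also with no call. Among them were MHC class I presentation (median -0.30, 0 of 7 above 0) and interferon-stimulated genes (-0.39, 1 of 6). Toll-like receptors and inflammasome (-0.17, 1 of 5) and acute phase (-0.14, 2 of 4) were others. Leaving out 1 array gave -0.42 to -0.18 for class I, relative to all genes. Of 9 readable macrophage genes 8 were below 0 (median -0.57), and none was called. Relative to all genes the macrophage median went from -0.58 to -0.30 without replicate 3 with ASCs, that of class II from -0.56 to -0.33 and that of complement from -0.40 to -0.22. Cd68, a lysosomal protein of macrophages, was at -1.52 to 3.29 (median 2.47) with ASCs and 0.08 to 4.43 (median 3.19) with BAM only, a difference of -1.06 ± 0.46 (adjusted p = 0.064). It hung on single arrays, at -1.48 (adjusted p = 0.0044) without replicate 5 of BAM only and -0.56 (adjusted p = 0.30) without replicate 3 with ASCs. Csf1r, the receptor on which macrophages depend, and Cd163, a hemoglobin scavenger, were at -0.57 (adjusted p = 0.027) and -0.18 (adjusted p = 0.70). Of 6 readable genes of class II presentation 5 were below 0 (median -0.55). RT1-Db1, a beta chain of rat class II, differed by -1.13 ± 0.41 (adjusted p = 0.025) and by -1.37 (adjusted p = 0.0057, a call) without replicate 5 of BAM only, RT1-Da by -0.68 (adjusted p = 0.11) and RT1-Bb by -0.0044. All 25 genes of T and cytotoxic lymphocytes on the array were below the detection filter, and 14 of 15 neutrophil genes were too. Only a pair of mast cell proteases could be read, Mcpt8 and Mcpt9, at 0.72 (adjusted p = 0.32) and 1.35 (adjusted p = 0.071), with levels that spread from -1.12 to 3.41 for Mcpt9 on the arrays with ASCs alone, while the defining Cpa3, Cma1 and Kit did not pass the detection filter. Of 9 complement genes 8 were below 0 (median -0.39) and C1s, a protease that begins the classical pathway, fell by 0.61 ± 0.15 (adjusted p = 7.8e-04). Without replicate 3 with ASCs its difference was -0.42 (adjusted p = 0.0056), under the 1.5-fold limit, as was the -0.54 without replicate 2 of BAM only, and its partner C1r differed by -0.36 (adjusted p = 0.046).

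Vessels and matrix showed single falls. Cdh5, the cadherin between endothelial cells, was at -2.88 to -1.94 with ASCs and -2.43 to -0.08 with BAM only, a fall of 0.87 ± 0.23 (adjusted p = 0.0019), but -0.66 (adjusted p = 0.013) without replicate 8 of BAM only, the dim array. Pecam1 and Kdr, which also define endothelium, differed by -0.17 and -0.20 (adjusted p = 0.44 and 0.37). Flt4, the VEGF receptor of lymphatic vessels, fell by 0.67 ± 0.16 (adjusted p = 6.9e-04), with -0.48 without replicate 5 of BAM only. Of 10 genes of elastic fibers 2 fell, Eln, elastin, by 0.90 ± 0.29 (adjusted p = 0.0091) and Fbn1, fibrillin, by 0.61 ± 0.19 (adjusted p = 0.0091). Both were close to the threshold: Eln remained a call in 6 and Fbn1 in 7 of the 16 fits that left out 1 array, and without replicate 3 with ASCs they were at -0.63 (adjusted p = 0.056) and -0.46 (adjusted p = 0.046). Only 2 fibrillar collagens were unsaturated and detected, with a median of -0.31 and no call. The surface markers of stromal cells, a class to which the seeded cells belong, had a median of -0.01 over 9 genes (-0.69 to 0.46, 2 above 0) with no call. Thy1 (CD90) and Itgb1 (CD29), which define such cells in culture, differed by -0.01 and 0.13. Thy1 was dim on all 16 arrays (-3.04 to -1.77). On replicate 8 of BAM only it was at -1.77, below the lowest signal well above background of that array (-1.20), so its difference says little.

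Signaling genes moved singly within their lists. Igfbp7, a binding protein of insulin-like growth factors made by vessels and stroma, was at 0.17 to 1.07 (median 0.82) with ASCs and 1.54 to 2.42 (median 1.91) with BAM only, a fall of 1.25 ± 0.13 (adjusted p = 2.6e-12) with the groups apart. The other 8 genes of that list were at -0.50 to 0.12. Wnt1, a canonical Wnt ligand of the developing brain, was at -2.20 to -1.46 with ASCs and -1.27 to 0.46 with BAM only and fell by 1.22 ± 0.17 (adjusted p = 1.3e-08), 15 of 17 Wnt ligands on the array not passing the detection filter. Wnt4, the other one that could be read, was at 0.78 and no call. Stat3, which passes on signals of the interleukin 6 family, fell by 0.67 ± 0.12 (adjusted p = 3.2e-06), with levels of 0.85 to 1.70 with ASCs and 1.91 to 2.36 with BAM only, and Stat6, which acts behind interleukin 4, rose by 0.61 ± 0.14 (adjusted p = 2.1e-04), with levels of -0.35 to -0.11 with ASCs and -1.11 to -0.60 with BAM only. Neither gene overlapped between the groups. Without the 3 arrays that stood apart, Stat3 was at -0.55, under the 1.5-fold limit, and Stat6 was at 0.57, also under it, without replicate 1 of BAM only. Nf2, the merlin that activates the Hippo kinases, rose by 0.77 ± 0.09 (adjusted p = 8.5e-11) with the groups apart, the other 7 readable Hippo genes being at -0.49 to 0.26. Tgif1, a corepressor of Smad proteins, rose by 0.63 ± 0.10 (adjusted p = 1.9e-07), and without replicate 5 of BAM only it was at 0.58, just under 1.5-fold. Bmp2, a bone morphogenetic protein, was at 0.48 to 2.12 with ASCs and -1.90 to 1.11 with BAM only, a rise of 0.87 ± 0.24 (adjusted p = 0.003) that was 0.58 (adjusted p = 0.021) without the same array and 0.71 (adjusted p = 0.016) without replicate 3 with ASCs. In the Hedgehog list 15 of the 17 genes on the array were below the detection filter. The 2 that could be read, the ligand Ihh and Disp1, which releases the ligand, were at 0.62 and 0.21, and neither was a call.

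Genes of metabolism showed 2 calls in the lists of respiration and cholesterol synthesis. Of 74 ribosomal protein genes on the array 65 had only saturated probes, and the 9 readable ones had a median of 0.07 with no call. In the respiratory chain 51 genes were readable (median 0.03) and 1 was called, Cox7c, a small subunit of cytochrome oxidase, which fell by 0.89 ± 0.13 (adjusted p = 9.3e-08). Smaller differences without overlap between the groups were found for Sdhb, the iron-sulfur subunit of complex II, at -0.34 ± 0.06, and Cox6b1, another cytochrome oxidase subunit, at 0.39 ± 0.08, both under the 1.5-fold limit. Lss, which closes the ring of lanosterol in cholesterol synthesis, rose by 0.67 ± 0.16 (adjusted p = 3.9e-04) and was at 0.55 without replicate 5 of BAM only. Of 14 genes of fatty acid synthesis and oxidation 12 were above 0 (median 0.33) with no call.

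A level at the limit of the scanner is underestimated, so that a rise over it has no size but a fall from it has a lower bound. Of 292 genes with saturated probes only, 134 were called, 131 of them higher and without a direction here. The other 3 were lower with ASCs. Foxe1, a forkhead factor of the thyroid, was saturated on 7 of 8 arrays of BAM only and on none with ASCs, and was at least 2.16-fold lower with ASCs (adjusted p = 3e-11). Mmp15, a membrane-bound matrix metalloproteinase, saturated on 4 arrays of BAM only, was at least 2.05-fold lower (adjusted p = 1.4e-07), and Idnk, a gluconate kinase saturated on 1, at least 1.69-fold lower (adjusted p = 3.6e-10).

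At the dim end, 19 probes were well above background on all 8 arrays with ASCs and on none of BAM only, and 0 probes the other way round. The floor differed between the slides: the lowest signal well above background was at -4.38 to -3.24 with ASCs and -3.56 to -1.20 with BAM only, so these are bounds against that floor. For 12 of the 19 the mean with ASCs was itself at or below the floor of BAM only, and for none did the bound exceed 1.5-fold. The 5 largest bounds were at least 1.12-fold to at least 1.38-fold, and Atm, the kinase that senses DNA breaks, at least 1.12-fold, was the one among them with a name.

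The genes called at 90 days were then followed on the arrays of the other days, where the same grafts were compared on other slides and in other rats. The 113 lower genes had a median difference of -0.48 at 7 days, -0.12 at 30 days and 0.54 at 180 days, when the medians of all 5053 genes were -0.04, -0.01 and -0.02. At 180 days 109 of the 113 were above 0 and 36 were called higher, against 1.37% called higher among all 5053 genes. Detection had been required on the arrays of 90 days only, so levels near the floor can enter on the other days. On all arrays of 90 and 180 days, 100 of the 113 lower and all 114 higher genes were detected. None of the 113 was called lower at 180 days, nor was any of the 5053 by limma, though 537 of the 5053 were lower at an unadjusted p under 0.05, 0 of them among the 113. At 7 days 43 of the 113 were called lower (3.15% of all genes) and none higher (4.25% of all genes), and at 30 days 3 were called lower (1.37%). Their median level at 90 days was -0.65 with ASCs against 0.44 for BAM only, whereas at 180 days it was -0.01 against -0.51, so the order of the grafts was the opposite. The 114 higher genes had medians of 0.09, 0.08 and -0.10 at 7, 30 and 180 days, with 15, 7 and 1 of them called higher and 3, 1 and 0 called lower. Among all 5053 genes, 4.25%, 1.76% and 1.37% were called higher and 3.15%, 1.37% and 0% lower on these days. At 90 days they had a median level of 1.09 with ASCs against 0.41 for BAM only, whereas at 180 days it was 1.16 against 1.26. Since the genes were chosen for their difference at 90 days, a smaller difference at another day would follow from that choice.

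**Figure D5:**
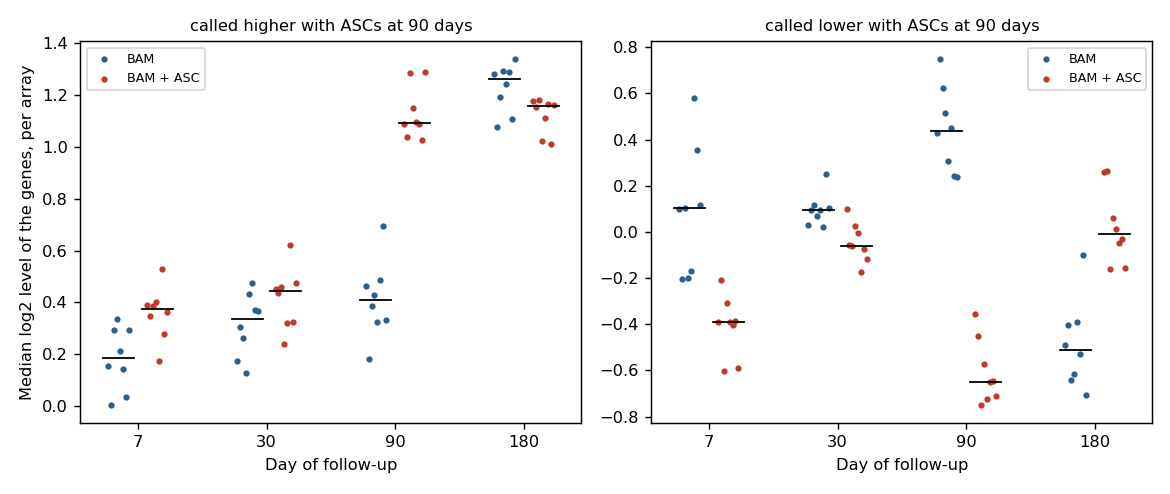
Median level of the 114 genes called higher (left) and the 113 called lower (right) at 90 days on each of the 64 arrays (vertical axis, log2 relative to the 75th percentile) by day of follow-up, 8 points per group with black bars at the medians. At 90 days the groups are apart by the choice of the genes, and for the lower genes BAM seeded with ASCs sits above BAM only at 180 days (-0.01 against -0.51) and below it at 7 days (-0.39 against 0.10).

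A test of the difference itself, the effect of ASCs at 90 days minus that at 180 days, was made on probes detected on all 32 arrays of both days. It passed for 970 of 7536 unsaturated probes (12.9%). For genes called at 90 days the result was fixed in part by that choice, since the same difference at 90 days enters the test, so no count of them is given as support. Etv3 differed by -1.62 at 90 days and 1.37 at 180 days (difference -2.99 ± 0.19, adjusted p = 5e-20), Igfbp7 by -1.25 and 0.99 (-2.24 ± 0.18, adjusted p = 2.9e-16), and Dlx3 by -1.45 and 0.93 (-2.38 ± 0.26, adjusted p = 3.1e-11). Pkib differed at 90 days by -2.05 but at 180 days by 0.18 (adjusted p = 0.39). Of the genes that rose, Upk1b differed by 1.13 at 90 days and -0.71 at 180 days (1.85 ± 0.48, adjusted p = 0.0014), Dync2i2 by 1.09 and -0.10 (1.19 ± 0.13, adjusted p = 3.3e-11) and Nf2 by 0.77 and -0.10 (0.87 ± 0.12, adjusted p = 6e-08). Ano1 was higher with ASCs at 7 days (0.93, adjusted p = 2.1e-04), 30 days (0.91, adjusted p = 7.8e-04) and 90 days, whereas at 180 days it was at -0.18 (adjusted p = 0.63). H1f4 was lower with ASCs at 7 days (-0.92, adjusted p = 0.0043) and higher at 90 days. At every day each graft had a slide of its own, so that slide and graft cannot be told apart in these differences either.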

How the data were processed

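Total RNA of 64 reconstructed bladder walls was labeled with Cy3 and hybridized to 1-color Agilent rat arrays, and the 16 arrays of 90 days are described. Each array came as the text table that the authors deposited from Agilent Feature Extraction 12.0.1.1, in which the processed signal is a background-corrected intensity on a linear scale, not normalized between arrays. A deposited series matrix of the same intensity was used as an alternative. By the study's methods, RNA had to pass a limit of integrity and 8 samples per group were then taken, and how these were picked among those that passed is not given in the sources used here.

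From the deposited intensity, log2 minus the 75th percentile of the gene spots was computed. Control and outlier spots were left out, spots of a probe were averaged, and a probe counted as detected when no less than 0.5 of its spots passed the scanner software's flag for signal well above background. RefSeq accessions named 18758 of 30367 probes, with current names of assembly GRCr8. Group means were fitted over all 64 arrays with limma 3.58.1 in R 4.3.3, and p-values were adjusted by Benjamini-Hochberg over the 8749 probes tested. Genes named were the 12 largest rises and 12 largest falls, up to 3 called members each way of a list, the first 3 tested members of a list and members without overlap between the groups, and the 5 largest bounds, and 1 of the falls is not reported here. Foxe1, Mmp15, Idnk, saturated or undetected list members, Ihh and Disp1 were named after their values were seen. The members and lists were chosen with earlier results of these data known. Summaries and plots were made with pandas 2.3.3, numpy 2.4.6 and matplotlib 3.10.9 in Python 3.11.15. In simulated data of 7706 probes of this comparison, 90% of changes of 1 and 100% of changes of 2 (log2) were recovered, with 2 false calls. The simulated noise was drawn independently for each probe, with no slide effect and no array that stood apart. The 2 false calls therefore do not cover such effects. Replicates are separate rats. Precision is limited by 8 arrays per group.

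Replicate numbers are also positions on a slide and pair no animals, and the correlation of same-numbered arrays' deviations ran from -0.48 to 0.53. The alternatives tried were normexp correction of the median signal (offset 50), quantile, cyclic loess and other percentile scaling, the deposited matrix, other detection filters, a fit of 16 arrays, array weights, a 2-way analysis of variance without moderation (the methods' test), a replicate block, each array left out, outlier spots kept, 1 probe per gene and other thresholds. Leaving out saturated probes, the 1750 brightest probes or 3 arrays together, and quantile normalization with the 16-array fit, were chosen after seeing the data.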

Additional observations from a re-analysis of the deposited data

Results flagged for a closer look

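In each group of 8 arrays, the gap between the highest or lowest array and its neighbor was set against the range of the group. It was above the 95% limit of Dixon's test in 28 places over 138 groups of values, where chance gives about 1 in 20. On replicate 5 of BAM only, epithelial genes were far below the other arrays: Syt8 at -2.81, Rnf208 at -3.23, Krt7 at -0.04, Krt8 at -2.55, Pparg at 0.04, Gata3 at -2.55, Elf3 at -0.89, Cdh1 at -0.74, Epcam at -1.52 and Cldn4 at -0.53 (log2 levels). The same array was lowest for Cd68 (0.08) and Bmp2 (-1.90) and far above the others for Cald1 (3.97), Acta1 (2.32) and Itgb1 (3.40).

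Replicate 3 with ASCs was far above its group for Krt7 (5.29), Pparg (4.01) and Bmp2 (2.12). It was far below for Eln (-2.50), Fbn1 (-1.86), Cd68 (-1.52), Csf1r (-2.73), C1s (1.27) and C1r (1.52). Replicate 8 of BAM only stood apart for Gabrq (1.27), Cdh5 (-0.08) and C1r (2.21), and replicate 2 of BAM only for Eln (1.40).

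The effect of ASCs at 90 days minus that at 180 days passed limma's test of the difference for 22 of the 63 genes examined, many of which were chosen for their difference at 90 days, which enters the test. It was above 0 for Caskin1 (1.17), Upk1b (1.85), Dync2i2 (1.19), Cyp2s1 (1.24), Pcbd1 (1.19), Ano1 (1.10), Tgif1 (0.59) and Nf2 (0.87). It was below 0 for Pkib (-2.23), Slc32a1 (-1.87), Adam7 (-2.14), Etv3 (-2.99), Ppp1r35 (-2.38), Dlx3 (-2.38), Amer1 (-1.95), Ocln (-0.87), Cox4i2 (-1.40), Wnt1 (-1.91), Igfbp7 (-2.24), Flt4 (-0.87), Stat3 (-1.13) and Cox7c (-1.48).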

How the results depend on the processing

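The count of 1164 DEGs (728 higher, 436 lower) became 751 (305 higher) after quantile normalization and 672 (259 higher) with that and the fit of 16 arrays, and cyclic loess gave 431 higher, so that the higher calls were 62.5%, 40.6% and 41.6% of all calls with the main scaling, quantile and cyclic loess. Without the detection filter it was 3778 (1176 higher, 2602 lower), of which 622 and 2580 were unsaturated, and the median difference of all probes was -0.27. Detection on all arrays of at least 1 group gave 1121 higher and 585 lower (564 and 566 unsaturated), and the 4375 brighter probes 171 lower (70 higher and 152 lower unsaturated). One probe per gene gave 364 (253 and 111, unsaturated 110 and 107), a 2-fold threshold 508 (342 and 166, unsaturated 9 and 163), the 1750 brightest probes left out 534 (155 higher), and unsaturated probes refitted 573 (167 higher). With replicate 8 of BAM only left out of fit and filter, 280 unsaturated probes were higher and 631 lower. The difference between 90 and 180 days was called for 1539 probes, and for 2961 (2400 unsaturated) without the filter. Leaving out 1 array at a time gave 1116 to 1210 DEGs, 700 to 765 higher and 408 to 452 lower, of which 150 to 216 and 390 to 434 were unsaturated. With a replicate block the counts were 1175, 735 and 440, and 1567 for the difference between days. Same-numbered arrays correlated in their deviations at -0.48 to 0.53, and 2 of 8 correlated best with their own number. Of the 40 called genes that the naming rule chose, 16 lost the call without some array and 18 under another normalization, filter or fit. None changed direction. Saturation limits the bright end, and the higher floor of BAM only the dim end.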
